A study of Homo sapiens with 2 samples.

Results

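The genes described here make, sense, move and store cholesterol. They are 28 genes fixed by name, and every probe set that the array platform's annotation gives to exactly 1 gene, and that gene being one of the 28, was taken as a member. This gave 57 probe sets for 26 genes, out of 19775 genes with such a probe set on the array. The other 2 genes are FDFT1, squalene synthase, which is not analysed here, and CYP51A1, the sterol demethylase that acts on lanosterol, whose probe sets the annotation also gives to LRRD1.

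The measurements come from C4-2, an established human prostate cancer cell line derived from LNCaP. The cells were transfected for 48 h with miR-99a, a microRNA, or with si-GL2, a control small interfering RNA named after a luciferase reporter, using the same lipid reagent and serum-containing medium for both. Each of the 2 groups is 1 Affymetrix array of total RNA, so no value has a replicate error and no p-value exists. All differences are between these 2 arrays, and a difference between the conditions cannot be told apart from any other difference between the 2 cultures.

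Cells build cholesterol from acetyl-CoA through mevalonate, squalene and lanosterol, and take up more of it from lipoproteins through endosomes and lysosomes. The supply is set by the SREBP transcription factors, which the sterol sensor SCAP escorts from the endoplasmic reticulum to the Golgi for cleavage when sterols are scarce, while INSIG proteins hold SCAP back when sterols are plentiful. Cholesterol is also the starting material for androgens. A microRNA lowers mRNAs mainly by pairing its seed, bases 2 to 8, with their untranslated regions. The sequences of both arms of miR-99a and of its relatives with the same seed are shown because they name the agent of the comparison; the seed is in capitals, the sequences are those of RefSeq on GRCh38.p14, and the labels do not say which arm was transfected.
hsa-miR-99a-5p: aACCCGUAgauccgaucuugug
hsa-miR-99a-3p: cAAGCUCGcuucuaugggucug
hsa-miR-100-5p: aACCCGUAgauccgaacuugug
hsa-miR-99b-5p: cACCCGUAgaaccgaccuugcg
The 5p arm of miR-99a shares its seed with miR-100-5p, from which it differs at 1 base in all, and with miR-99b-5p, from which it differs at 4. Matches to this seed in the transcripts of the members were not analysed here.

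Signals are linear intensities, and a difference is always that of log2(signal + 16), miR-99a minus si-GL2. A gene was represented by its brightest probe set, and it counted as expressed when the mean of that probe set over both arrays reached the median of all probe sets, a signal of 47.2; 12218 genes did. Signals of different probe sets are not comparable as amounts of RNA. Over these 12218 genes the median difference was -0.03 and the SD 0.26. When 2 expressed probe sets measured the same gene, which was so for 5842 genes, their differences were a median of 0.14 apart. The 8 luminal prostate markers with a named probe set, among them KLK3 and TMPRSS2, were all expressed, between 378 and 6982 after miR-99a and between 312 and 7147 after si-GL2. The basal markers KRT5 and KRT14 were below the limit on both arrays, at summed signals of 35.2 and 40.5. Of 10 leukocyte, fibroblast, endothelial and liver markers, 5 reached the limit, at signals of no more than 229.6 after miR-99a and 232.8 after si-GL2, while CD14, CDH5 and ALB were at 12.11 or less on both arrays. Summed signals were 118 against 77.1 for the leukocyte, 361 against 321 for the fibroblast, 203 against 171 for the endothelial and 95.1 against 94.3 for the liver markers. All leukocyte and endothelial markers and 2 of 3 fibroblast markers were above the control, among the expressed ones DCN by 0.39, CD3E by 0.37 and PECAM1 by 0.20. Luminal markers ran from -0.52 for STEAP2 to 0.31 for KRT8. The part of these shifts in the results was not tested.

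Most enzymes of cholesterol synthesis were slightly lower after miR-99a, and the genes that control and distribute cholesterol lay on both sides of the control. Of the 16 enzymes measured, all expressed, 13 were below 0, against 53.2% of all genes and 56.3% of expressed genes, and their median difference was -0.27. The lowest was the sterol isomerase EBP, at 71.5% of its control signal, and the highest was the decarboxylase MVD, at 116%; MVK, LSS and HSD17B7 differed from the control by less than 0.1. The other 10 genes had a median of 0.09, with 4 below 0. Over all 26 genes 17 were below 0 and the median was -0.19, against -0.02 for all 19775 genes. No member reached a change of 1.5-fold by its brightest probe set: 0 were at least 1.5-fold lower, against 3.69% of all genes, and 0 were at least 1.5-fold higher, against 2.9%. Among expressed genes the shares are 2.9% lower and 1.21% higher. These counts have no test, because each condition is 1 array, and genes of 1 pathway do not vary independently between cultures.

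**Figure D1:**
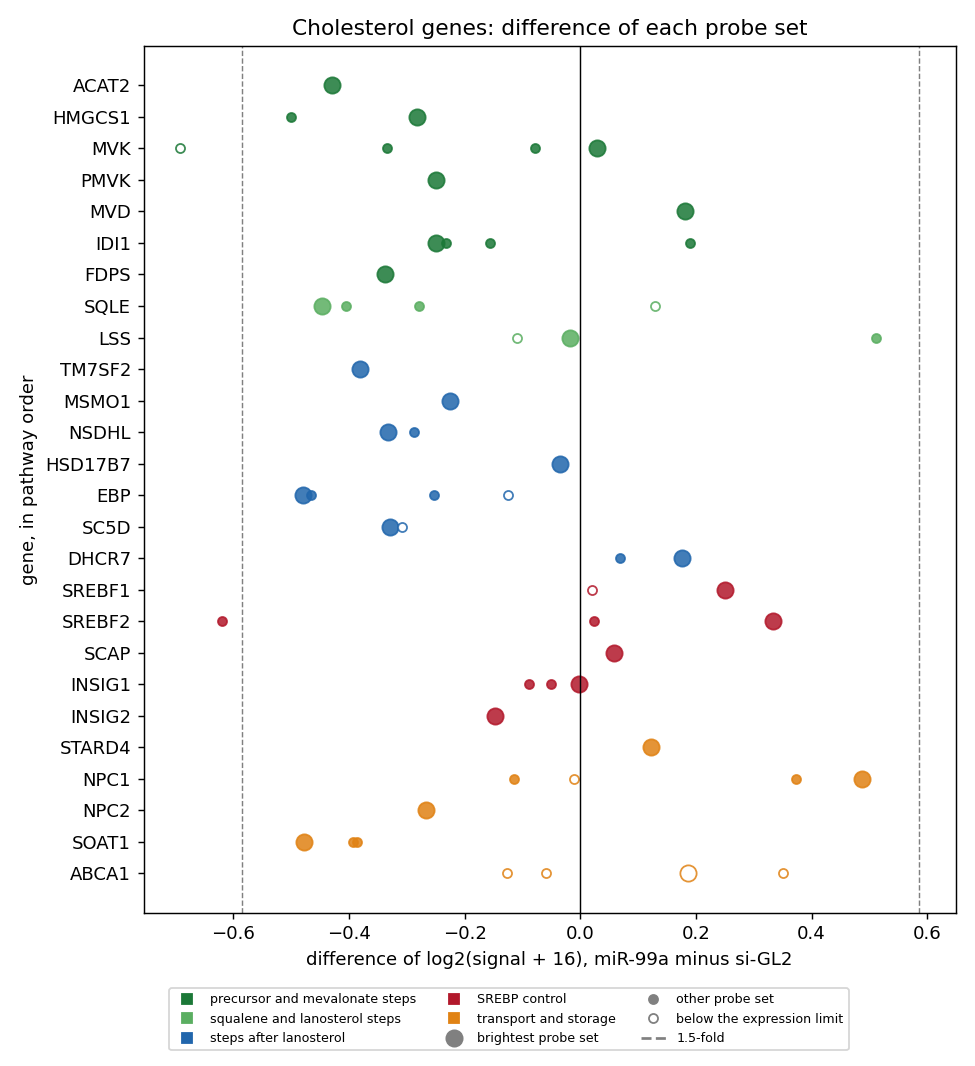
Each point is 1 probe set; the x axis is the difference of log2(signal + 16), miR-99a minus si-GL2, and the y axis lists the 26 genes in pathway order, with the brightest probe set large and probe sets below the expression limit open. Of the 16 enzymes at the top, 13 have their large point left of 0, and no large point reaches the dashed 1.5-fold lines.

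The first steps turn acetyl-CoA into the isoprenoid units from which squalene is made, and 5 of their 7 genes were lower, with a median of -0.25. ACAT2, the cytosolic thiolase that joins acetyl-CoA units, had a signal of 593 with miR-99a against 805 in the control, which is -0.43 on the log2 scale. HMGCS1, the synthase that adds the next acetyl unit, was 1246 against 1518 (-0.28), and its dimmer probe set 488 against 698 (-0.50). Both of its probe sets were thus lower. PMVK, which adds the second phosphate to mevalonate, was 829 against 989 (-0.25). The isomerase IDI1 was 1754 against 2088 (-0.25) and 1756 against 2066 (-0.23) by a pair of probe sets whose names mark possible cross-hybridisation. Its dimmer probe sets were 118 against 133 (-0.16) and 94.4 against 80.8 (0.19), so the gene's lower value rests on probe sets of the less specific kind. FDPS, which makes farnesyl pyrophosphate, was 2192 against 2774 (-0.34) by its only probe set.

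MVK and MVD were not lower. MVK, mevalonate kinase, had its brightest probe set at 664 against 651 (0.03). The others were 310 against 395 (-0.33), 151 against 160 (-0.08) and below the expression limit, 9.77 against 25.6 (-0.69). Its probe sets thus fell on both sides of 0, and its mean over all of them was -0.27. MVD, which makes isopentenyl pyrophosphate, was 86.3 against 74.2 (0.18), signals close to the expression limit.

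The windows of 300 bases around the annotated starts of HMGCS1 and FDPS are shown because NF-Y, a factor that binds the letters CCAAT, is known to act beside SREBP at genes of this pathway. Matches to CCAAT on either strand are in capitals. The windows run from 250 bases before to 50 after a RefSeq start on GRCh38.p14 and are those at chr5:43313363-43313662, minus strand, and chr1:155308616-155308915, plus strand.
HMGCS1: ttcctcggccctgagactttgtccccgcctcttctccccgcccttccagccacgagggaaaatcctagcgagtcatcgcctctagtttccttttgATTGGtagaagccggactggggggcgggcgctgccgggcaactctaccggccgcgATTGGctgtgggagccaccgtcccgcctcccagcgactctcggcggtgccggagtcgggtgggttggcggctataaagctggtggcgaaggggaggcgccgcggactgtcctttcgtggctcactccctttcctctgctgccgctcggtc
FDPS: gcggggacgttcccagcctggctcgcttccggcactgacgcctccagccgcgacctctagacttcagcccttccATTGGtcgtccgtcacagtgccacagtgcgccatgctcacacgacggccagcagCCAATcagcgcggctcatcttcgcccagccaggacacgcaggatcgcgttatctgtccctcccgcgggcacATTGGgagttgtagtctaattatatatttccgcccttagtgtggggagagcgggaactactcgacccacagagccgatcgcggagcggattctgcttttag
The HMGCS1 window held 2 matches, which began 155 and 100 bases before the start; the window of its other annotated start (chr5:43313132-43313431) held none. The FDPS window held 3, beginning 176, 122 and 51 bases before it. A match describes the sequence and is not a measured site.

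At the squalene and lanosterol steps, SQLE was lower and LSS was near the control by its brightest probe set. SQLE, squalene epoxidase, a rate-limiting oxygenase of the pathway, had its brightest probe set at 829 with miR-99a against 1135 in the control (-0.45). Its other expressed probe sets were 189 against 232 (-0.28) and 122 against 167 (-0.41). All 3 were lower, while a probe set below the limit was 27.96 against 24.2 (0.13). LSS, which closes squalene epoxide into lanosterol, was 1142 against 1156 (-0.02), but a dimmer probe set was 116 against 76.9 (0.51). The dimmer probe set of LSS was the highest among all 57 probe sets of the members, and its remaining one, below the limit, was 41.2 against 45.7 (-0.11).

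The steps that turn lanosterol into cholesterol had 6 of 7 genes below 0, with a median of -0.33 and a mean of -0.23. EBP, which shifts a double bond in the sterol ring, was 1198 against 1676 by its brightest probe set (-0.48) and 1134 against 1572 by the next (-0.47). The remaining ones were 184 against 223 (-0.25) and, below the limit, 30.8 against 35.1 (-0.13). All 4 probe sets of EBP were lower, and 5.08% of expressed genes had a difference as low as its brightest. TM7SF2, a sterol reductase of the endoplasmic reticulum, was 935 against 1222 (-0.38) by its only probe set. The dehydrogenase NSDHL, which helps remove the methyl groups of lanosterol, was 449 against 569.6 (-0.33) and 299 against 368 (-0.29), so both of its probe sets were lower by like amounts. SC5D, the desaturase near the end of the pathway, was 1396 against 1757 (-0.33) and, by a probe set below the limit, 27.3 against 37.6 (-0.31). MSMO1, a methylsterol oxidase, was 2171 against 2541 (-0.23).

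HSD17B7 was near the control and DHCR7 above it. HSD17B7, a ketoreductase, was 1049 against 1075 (-0.03) by a single probe set of the kind marked for cross-hybridisation. DHCR7, the reductase that makes cholesterol in the last step of one branch, was 1178 against 1041 (0.18) and 1114 against 1061 (0.07), and was thus above the control by both probe sets. The probe sets shared by CYP51A1 and LRRD1 were 1722 against 1810 (-0.07) and 1338 against 1428 (-0.09), and are left out of the counts.

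The windows of EBP (chrX:48521558-48521857, plus strand) and TM7SF2 (chr11:65111622-65111921, plus strand) are shown because these genes had the lowest values among the enzymes for which a window was found, with CCAAT matches in capitals.
EBP: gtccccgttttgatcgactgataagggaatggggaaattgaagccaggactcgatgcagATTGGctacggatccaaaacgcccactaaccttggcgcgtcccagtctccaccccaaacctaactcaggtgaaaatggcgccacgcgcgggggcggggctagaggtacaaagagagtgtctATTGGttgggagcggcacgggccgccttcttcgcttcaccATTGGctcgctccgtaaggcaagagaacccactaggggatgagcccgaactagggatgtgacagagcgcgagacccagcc
TM7SF2: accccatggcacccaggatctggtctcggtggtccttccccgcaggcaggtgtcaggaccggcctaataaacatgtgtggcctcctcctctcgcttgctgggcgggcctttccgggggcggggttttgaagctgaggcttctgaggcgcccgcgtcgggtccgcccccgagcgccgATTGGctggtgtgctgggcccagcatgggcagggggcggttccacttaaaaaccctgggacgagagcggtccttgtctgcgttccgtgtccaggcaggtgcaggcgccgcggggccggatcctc
EBP had 3 matches, which began 191, 70 and 30 bases before the start, and TM7SF2 had 1, 74 bases before it. All 4 lay on the strand opposite to the gene, so they read ATTGG in the sequences as printed.

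**Figure D2:**
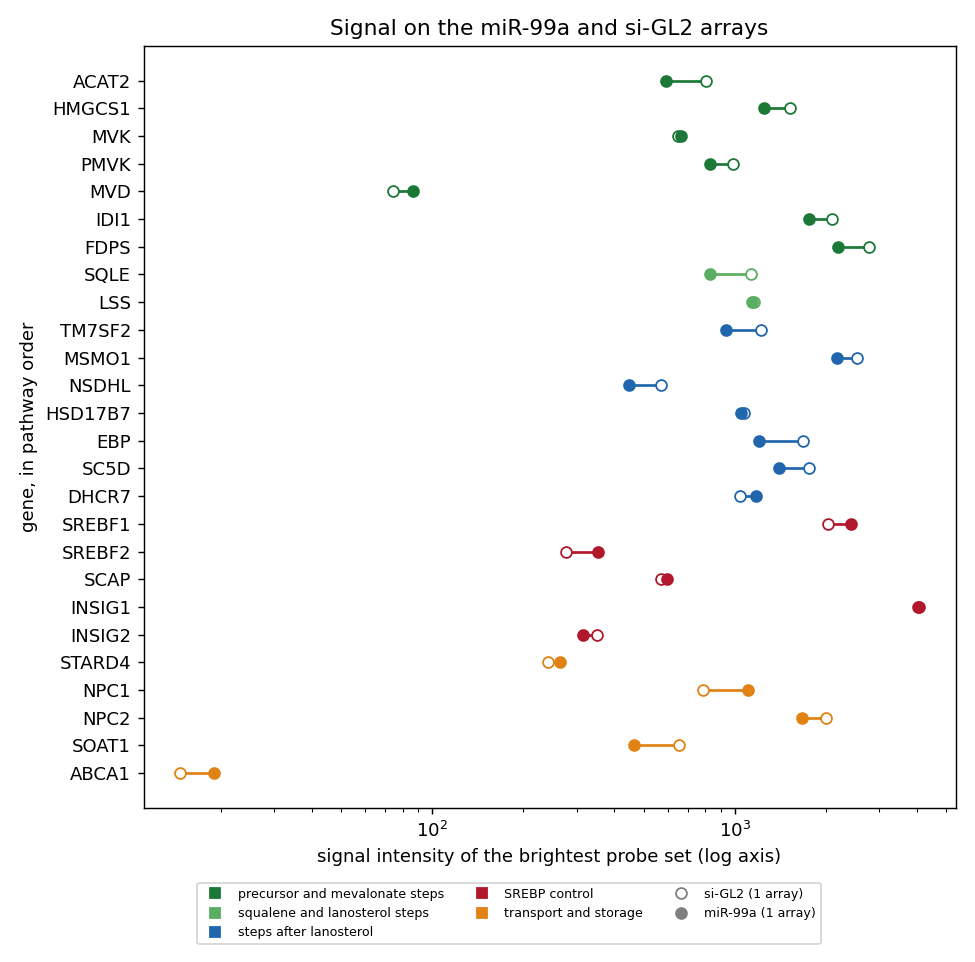
The signal of each gene's brightest probe set is plotted on a log axis, open for the si-GL2 array and filled for the miR-99a array, with genes in pathway order on the y axis. Filled points lie left of open ones for most enzymes, as for EBP at 1198 against 1676, whereas INSIG1 at 4045 and 4049 overlaps.

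The genes that sense sterols and control the pathway lay on both sides of the control: 2 of 5 were below 0 and the median was 0.06. INSIG1, which retains SCAP and is itself a well-known SREBP target, was 4045 after miR-99a and 4049 after si-GL2 (-0.00). Its other probe sets were 2911 against 3096 (-0.09) and 1081 against 1120 (-0.05), so its 3 probe sets lay within 0.1 of the control. INSIG2, which has the same role but is less tied to SREBP, was 314 against 349.7 (-0.15). SCAP was 597 against 572 (0.06).

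SREBF1, which encodes the SREBP-1 forms best known for fatty acid genes, was 2418 against 2030 (0.25), with a probe set below the limit at 30.4 against 29.7 (0.02). SREBF2, which encodes SREBP-2, the main activator of cholesterol synthesis, gave opposite values. Its brightest probe set was 354 against 278 (0.33), the next 226 against 356 (-0.62) and the dimmest 111 against 109 (0.02). The probe set at -0.62 is the only expressed probe set among the 46 of the members that passed 1.5-fold, and no direction can be given for SREBF2. The SREBF2 window (chr22:41832855-41833154, plus strand) is shown because it alone among the members matched the sterol regulatory element searched, TCACNCCAC, the kind of site that SREBPs bind; that match and the CCAAT match are in capitals.
SREBF2: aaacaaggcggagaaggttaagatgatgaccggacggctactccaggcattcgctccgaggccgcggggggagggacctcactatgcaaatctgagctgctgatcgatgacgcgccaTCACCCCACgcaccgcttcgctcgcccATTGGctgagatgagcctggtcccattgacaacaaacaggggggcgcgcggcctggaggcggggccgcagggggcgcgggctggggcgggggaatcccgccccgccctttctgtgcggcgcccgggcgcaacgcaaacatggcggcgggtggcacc
The element began 133 bases before the start and the CCAAT match 106 bases before it.

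The transport and storage genes were the most spread, between -0.48 and 0.49. NPC1, the lysosomal membrane protein that exports cholesterol freed from lipoproteins, was 1106 after miR-99a and 785 after si-GL2 (0.49), and 2.13% of expressed genes were as high. Its other probe sets were 83.0 against 60.5 (0.37), 116 against 127 (-0.12) and, below the limit, 23.6 against 23.9 (-0.01). The higher value of NPC1 was therefore seen in 2 of its 3 expressed probe sets. NPC2, the soluble partner that hands cholesterol to NPC1, was lower, at 1664 against 2004 (-0.27). SOAT1, which esterifies cholesterol for storage in droplets, was 465 against 654 (-0.48), 222 against 297 (-0.39) and 61.9 against 85.7 (-0.39). All 3 of its probe sets were lower and lay within 0.1 of each other.

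STARD4, which carries cholesterol through the cytosol, was 264 against 241 (0.12). ABCA1, the pump that exports cholesterol to apolipoproteins, was below the expression limit by all 4 of its probe sets. The brightest was 19.0 against 14.7 (0.19), and the 4 differences ran from -0.13 to 0.35. At such signals no direction can be given. The window of NPC1 (chr18:23586457-23586756, minus strand) is shown because NPC1 was the highest gene by its brightest probe set. No match to CCAAT or to the sterol element in these letters was found in it. The same was so for CYP51A1 and for PMVK and INSIG2, which were lower. It was also so for SREBF1, SCAP and ABCA1, above 0 by their brightest probe set.
NPC1: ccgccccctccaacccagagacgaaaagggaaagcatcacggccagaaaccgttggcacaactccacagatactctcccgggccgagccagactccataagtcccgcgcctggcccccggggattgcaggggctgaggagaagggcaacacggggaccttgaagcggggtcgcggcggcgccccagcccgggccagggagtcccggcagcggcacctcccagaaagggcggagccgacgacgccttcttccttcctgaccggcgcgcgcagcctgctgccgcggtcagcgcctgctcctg

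**Figure D3:**
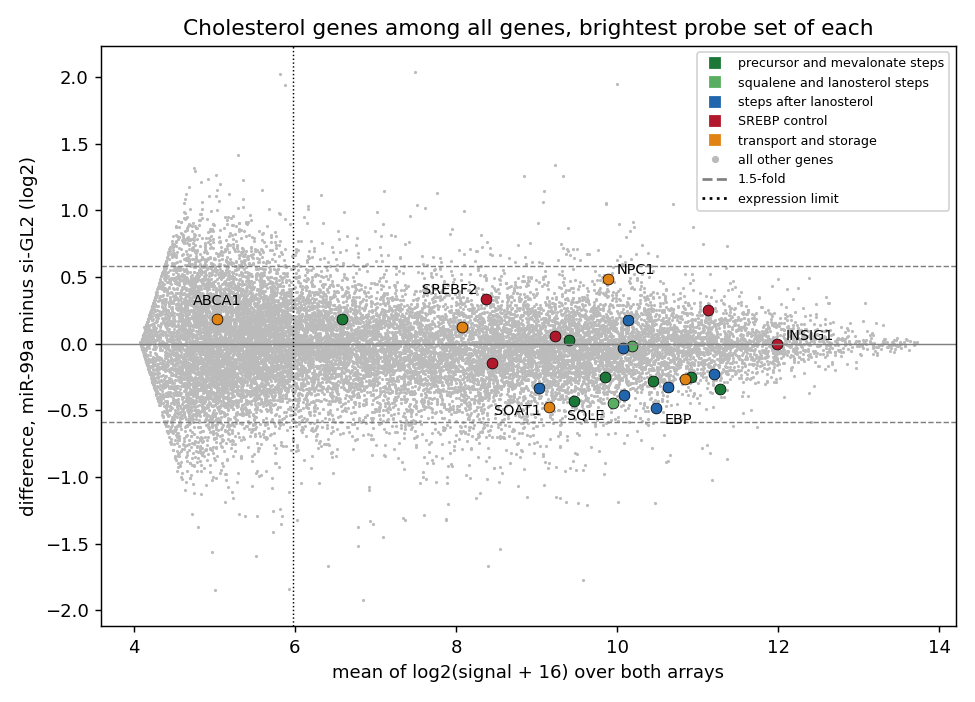
Each grey point is 1 of 19775 genes by its brightest probe set, with the mean of log2(signal + 16) on the x axis and the difference, miR-99a minus si-GL2, on the y axis; the coloured points are the 26 cholesterol genes. All but ABCA1 lie right of the dotted expression limit, and all lie between the dashed 1.5-fold lines.

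Probe sets of the same gene gave a check within the arrays, though not between cultures. Of the 46 expressed probe sets of the members, 33 were below 0. By their brightest probe set, 56.3% of expressed genes were below 0. That share counts genes and not probe sets, so it is not a like measure for the 46. The share over all expressed probe sets was not taken, and genes with several probe sets count several times among the 46. Among the 12 member genes with at least 2 expressed probe sets, the 2 brightest were both lower in 7, both higher in 1 and opposite in 4. The 7 were HMGCS1, IDI1, SQLE, NSDHL, EBP, INSIG1 and SOAT1, and the 1 was DHCR7. The opposite ones were MVK, LSS, SREBF2 and NPC1. The share with the same sign was 66.7%, near the 68.1% of all 5842 genes with such a pair. Of those 5842 genes, 2244 were lower by both probe sets and 1736 higher by both. Of the 26 genes, 11 have only 1 probe set and so no such check.

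The other sterol genes, a list of 34 written with earlier results of these data known, were split evenly. Of the 22 expressed, 11 were below 0 and 11 above, with a median of 0.04. The lowest were the lipoprotein receptor VLDLR, at 212 against 295 (-0.45), the protease MBTPS2, which makes the second of the cuts that free SREBPs, at 1255 against 1616 (-0.36), and the sterol-activated nuclear receptor NR1H3, at 185 against 229 (-0.29). A dimmer probe set of MBTPS2 was at 0.03. The highest were NCEH1, which hydrolyses cholesteryl esters, at 329 against 201 (0.67), FAF2, a factor in degradation at the endoplasmic reticulum, at 1112 against 778 (0.51), and the sterol exporter ABCG1, at 177 against 126 (0.44). The probe sets of ABCG1 ran down to -0.45. By the brightest probe set, NCEH1 was the only one of the listed genes past 1.5-fold, and it is measured by 1 probe set. Dimmer probe sets of SCARB1 and LRP1 reached 0.70 and -0.64. LIPA, which also splits cholesteryl esters, in lysosomes, was 1064 against 1222 (-0.20) and was lower by both of its probe sets; it is named after its values were seen.

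The branch that uses farnesyl pyrophosphate for prenylation, ubiquinone and dolichol held 13 genes, all expressed, with 9 below 0 and a median of -0.08. COQ2, which joins the side chain to the ubiquinone ring, was 569.99 against 852 (-0.57), with its other probe set at -0.17. The farnesyltransferase subunit FNTB was 81.1 against 101 (-0.27). RABGGTB, a subunit of the enzyme that prenylates Rab proteins, was highest at 2571 against 2014 (0.35), followed by PDSS1, which makes the ubiquinone side chain, at 899 against 742 (0.27); another probe set of PDSS1 was at -0.18.

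The promoter windows of the members were searched for short motifs, which the choice of genes did not use. Windows were found for 25 of the 28 genes, 32 windows in all, since some genes have several starts; none was found for ACAT2, SQLE or FDFT1. At least 1 CCAAT match on either strand was present in 18 of the 25 genes (72.0%) and in 13 of 15 enzymes, against 43.1% of 9934 expressed genes with a window. The letters GGGCGG, a box bound by SP1, were present in 24 of 25, against 75.5%. The E-box CACGTG was present in 5, against 12.7%, and TCACNCCAC in 1, against 1.4%. Only these exact letters were searched, so a gene without a match may still hold a site in other letters. In the windows of the members no match to 1 of these motifs overlapped a match to another. Genes with several windows have more chances of a match. CCAAT was found in HMGCS1, IDI1, FDPS, LSS, TM7SF2, MSMO1, NSDHL, HSD17B7, EBP, SC5D, INSIG1, NPC2 and SOAT1, all below 0. It was also found in MVK, MVD, DHCR7, SREBF2 and STARD4, which were above 0. It was absent from PMVK and INSIG2, which were lower, and from NPC1, SREBF1, SCAP and ABCA1, which were above 0. CYP51A1, without a probe set of its own, also lacked it. These signs are those of the brightest probe set. Whether a match goes with direction was not tested.

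**Figure D4:**
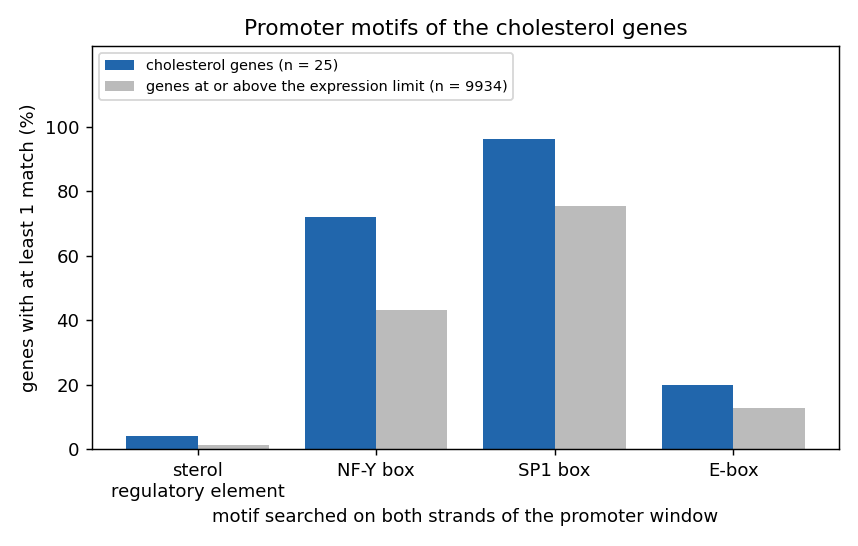
Bars give the percent of genes with at least 1 match to each motif on either strand of a 300-base window around the annotated start, for 25 cholesterol genes and for 9934 expressed genes. The NF-Y box is found in 72.0% of the cholesterol genes and 43.1% of the expressed genes.

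The sign of a gene's difference depended in some genes on the probe set taken. Of the 15 genes with several probe sets, 6 changed sign over the alternatives run: MVK, IDI1, LSS, SREBF2, INSIG1 and NPC1. In INSIG1 the scaling, not the probe set, turned the sign. All 3 of its probe sets were below 0, and it was at 0.002 after centring and 0.005 after quantile normalization. LSS turned with the probe set and with the scaling. Its brightest probe set went from -0.02 to 0.005 after quantile normalization and to 0.009 with the running median removed. HMGCS1, SQLE, NSDHL, EBP, SC5D and SOAT1 stayed below 0, and DHCR7 and SREBF1 above it. ABCA1 stayed above 0 as well, but single probe sets of it, all below the expression limit, lay on both sides. The 11 genes with 1 probe set kept their sign, which other probe sets could not test, and a change of pseudocount cannot turn the sign of a probe set. IDI1 moved from -0.25 to 0.19 when the probe sets marked _x_ or _s_ were left out. SREBF2 ran from -0.62 to 0.39 and NPC1 from -0.12 to 0.52.

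**Figure D5:**
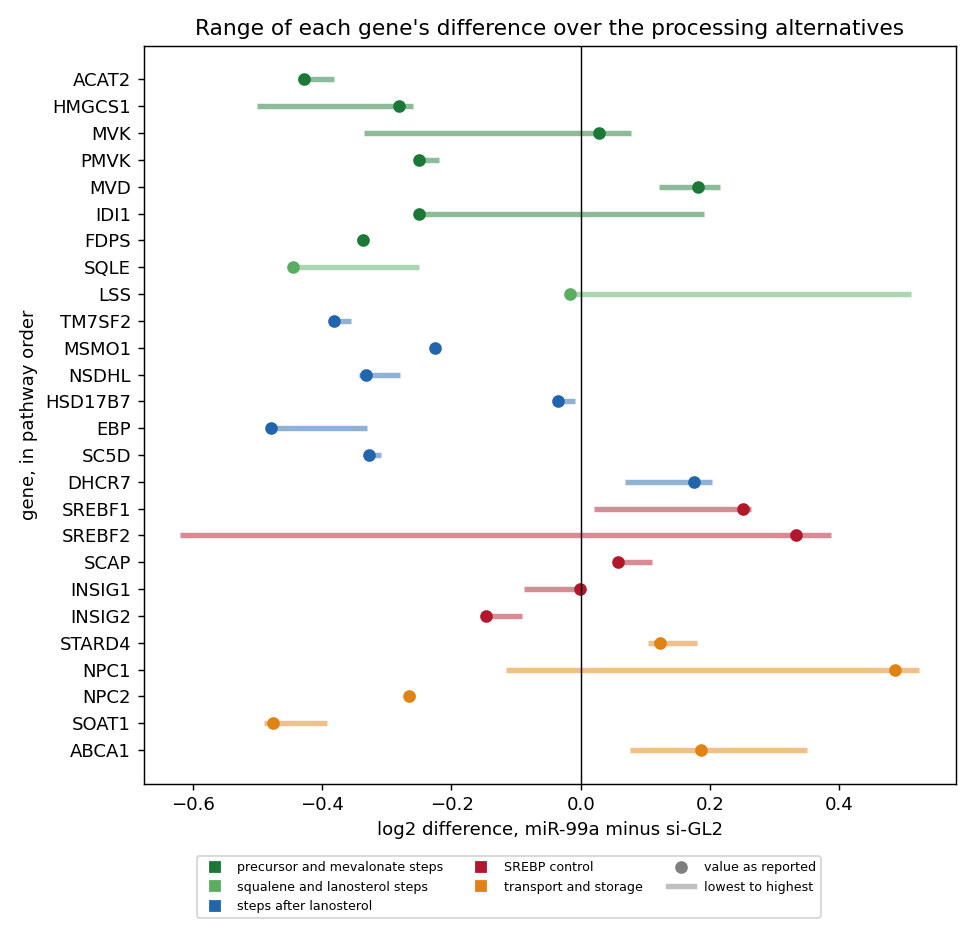
For each gene the point is the log2 difference as reported, miR-99a minus si-GL2, and the bar spans its lowest to highest value over the processing alternatives. The bars of EBP, SQLE, NSDHL, SC5D and SOAT1 stay left of 0, while that of SREBF2 spans from -0.62 to 0.39.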

How the data were processed

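The 2 arrays hold 1 signal intensity per probe set on a linear scale, as deposited by the authors; per the labels' protocols, the manufacturer's procedure was used for biotin labelling and hybridisation. How probes were summarised and arrays scaled is not given in the sources used here. Intensities ran from 0.70 to 13495 and from 0.73 to 13399, with medians of 47.8 (miR-99a) and 47.4 (si-GL2), and were used without further scaling. The number of arrays limits the precision. Of 54675 probe sets, the platform annotation gives 41097 to 1 gene, 1801 to several and 11777 to none; only the first were named.

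Values were taken as log2(signal + 16), which understates the change of dim genes. Each of 19775 genes was represented by the probe set with the highest mean over both arrays. The expression limit is a rank among probe sets; detection calls were not used. With 1 array per group no difference was tested; a change of 1.5-fold is a rule of size. The members, the lists and the rule for named genes (all members, and the lowest and highest expressed genes of the other lists) were chosen with earlier results of these data known, and the promoter motifs and the sequences shown after values were seen. The code was checked on simulated data. Sequences are from RefSeq tables of GRCh38.p14. Alternatives were pseudocounts of 1 and 64, centring, quantile normalization, removal of a running median over 1001 probe sets, other choices of probe sets, filters at the median and 75th percentile of level, and a 2-fold rule. The tools were matplotlib 3.10.9, numpy 2.4.6 and pandas 2.3.3, run under Python 3.11.15.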

Additional observations from a re-analysis of the deposited data

How the results depend on the processing

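Across 11 alternatives the median over the member genes ran from -0.28 to -0.15 and that over the enzymes from -0.30 to -0.25, and neither moved by 0.1 or more. The number of members below 0 was 11 when the second-brightest probe set was used, which exists for only 15 genes, and otherwise ran from 13 to 18. The 13 was out of the 20 genes left without probe sets marked _x_ or _s_. The number at least 1.5-fold lower was 1 with the second-brightest probe sets and 1 without the probe sets marked _x_ or _s_, in both cases SREBF2, and 0 in the other alternatives; the number at least 1.5-fold higher was 0 in all 12, the 2-fold rule included. The alternative that counts CYP51A1 by the probe sets it shares with LRRD1 was added after the data were seen; it gave 18 of 27 members below 0 and a median of -0.15. Of 266 values for single genes under an alternative, 23 moved by 0.1 or more. No paired analysis was possible because each group holds 1 array, and no array could be left out. Signals below the limit, such as those of ABCA1, or near it, such as those of MVD, are least certain.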

Other observations

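Single genes of the list of other sterol genes had several probe sets on 1 side of the control and are named after their values were seen. SCARB1, the receptor for high-density lipoprotein, had a signal of 1337 with miR-99a against 1241 in the control (0.11), and its 5 probe sets, dim ones included, ran from 0.05 to 0.70. The ubiquitin ligase MYLIP, which targets lipoprotein receptors, was 538 against 454 (0.24), and its 6 probe sets ran from 0.01 to 0.44. FAF2 was above 0 by both of its probe sets, at 0.51 and 0.35, and FAXDC2 by all 3, from 0.15 to 0.47. On the lower side were VAPA, with 5 probe sets from -0.52 to -0.05, and ERLIN2, with 3 from -0.10 to -0.08. MBTPS1, ERLIN1 and, as given above, LIPA were below 0 by both of their probe sets.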
